A study of Mus musculus with 9 samples.

Results

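The transcripts of 10 genes of the interleukin-1 (IL-1), tumor necrosis factor (TNF) and interleukin-6 (IL-6) cytokine families and of their relatives were followed through day 7 mouse fracture callus. They are the IL-1 ligands Il1a and Il1b, the IL-1 receptor antagonist Il1rn, Tnf, the 4 cytokines Il6, Osm, Lif and Il11 that signal through gp130, and the colony-stimulating factors Csf2 and Csf3. All 10 were found by gene symbol among the 22054 genes of the deposited table. They were selected on measured values, because the set was put together with earlier results of these libraries known. Their levels and fold changes are therefore given as a description, no p-value of a member is printed, and nothing is read from counts of members past a threshold. The 9 libraries fell into 3 groups of 3 by treatment: H-151, a chemical inhibitor of STING, SR-717, a chemical STING agonist, and PBS as the control. All animals were male C57BL/6J mice, were 7 weeks old per the labels and had a femoral fracture. Injections of 200 μl were intraperitoneal and daily for a week, with 750 nmol of H-151, 30 mg/kg of SR-717 or PBS alone. No group was free of fracture or of injection. Calluses are mixed tissue, and in such bulk samples fewer cells of a type and less RNA per cell cannot be told apart. Neither the labels nor the methods say whether a library came from 1 mouse or from pooled mice, so the spread between libraries may be partly technical.

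IL-1α and IL-1β bind the same receptor, which recruits an accessory chain and activates NF-κB and MAP kinases, and the antagonist encoded by Il1rn occupies that receptor without activating it. TNF acts through a pair of receptors with overlapping targets. IL-6, oncostatin M (Osm), leukemia inhibitory factor (Lif) and IL-11 use gp130 as a shared chain and signal mainly through JAK kinases and STAT3. In bone repair, IL-1, TNF and IL-6 belong to the early inflammatory phase and promote osteoclast formation, while oncostatin M, Lif and IL-11 also act on cells of the osteoblast lineage. GM-CSF (Csf2) and G-CSF (Csf3) drive the production and activation of macrophages and neutrophils.

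The genes lie on 5 chromosomes of GRCm38, all annotated as protein-coding in GENCODE vM21. Il1a (ENSMUSG00000027399) spans chr2:129299610-129309972 and Il1b (ENSMUSG00000027398) spans chr2:129364570-129371139, both on the minus strand and 54597 bases apart. Il1rn (ENSMUSG00000026981) lies far from them on the same chromosome, at chr2:24336853-24351494 on the plus strand. Osm (ENSMUSG00000058755, chr11:4236420-4241026) and Lif (ENSMUSG00000034394, chr11:4257557-4272514) are plus-strand neighbors separated by 16530 bases. Chromosome 11 also holds Csf2 (ENSMUSG00000018916, chr11:54247271-54249667, minus strand) and Csf3 (ENSMUSG00000038067, chr11:98701263-98703629, plus strand). Tnf (ENSMUSG00000024401, chr17:35199381-35202007, minus strand) sits 1157 bases from Lta. Il6 (ENSMUSG00000025746) occupies chr5:30013114-30019981 on the plus strand, and Il11 (ENSMUSG00000004371) occupies chr7:4772373-4782859 on the minus strand.

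For 8 of the 10 genes, all but Osm and Csf3, RefSeq start sites on GRCm38.p6 gave 11 promoter windows of the 250 bases before the start. Those of 5 genes are shown because 3 of them (Il1a, Il1b and Tnf) varied together across the libraries and the other two (Il6 and Lif) did not share that order. Capitals mark an NF-κB-type motif spelled GGGANTTTC or an AP-1 motif spelled TGANTCA, searched on both strands, where N is any base. The windows read from 5′ to 3′ along the gene.
Il1b, chr2:129371140-129371389, minus strand: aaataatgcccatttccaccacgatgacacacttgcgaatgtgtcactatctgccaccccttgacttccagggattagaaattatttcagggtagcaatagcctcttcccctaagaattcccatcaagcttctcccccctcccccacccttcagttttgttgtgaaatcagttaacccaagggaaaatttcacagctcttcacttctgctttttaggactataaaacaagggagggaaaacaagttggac
Il1a, chr2:129309973-129310222, minus strand: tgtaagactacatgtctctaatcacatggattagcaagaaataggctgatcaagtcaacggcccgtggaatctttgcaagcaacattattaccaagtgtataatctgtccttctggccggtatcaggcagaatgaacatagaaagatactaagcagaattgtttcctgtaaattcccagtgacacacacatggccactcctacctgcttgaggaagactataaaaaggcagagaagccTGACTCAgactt
Tnf, chr17:35202008-35202257, minus strand: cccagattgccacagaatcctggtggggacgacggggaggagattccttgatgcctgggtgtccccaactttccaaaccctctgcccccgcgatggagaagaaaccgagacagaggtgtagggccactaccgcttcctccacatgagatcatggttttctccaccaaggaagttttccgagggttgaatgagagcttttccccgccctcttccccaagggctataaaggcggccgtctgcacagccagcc
Il6, chr5:30012864-30013113, plus strand: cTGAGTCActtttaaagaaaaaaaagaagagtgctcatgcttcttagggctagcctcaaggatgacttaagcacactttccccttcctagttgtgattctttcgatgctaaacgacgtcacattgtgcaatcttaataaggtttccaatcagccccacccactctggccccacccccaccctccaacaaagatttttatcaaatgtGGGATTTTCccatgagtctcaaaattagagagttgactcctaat
Lif, chr11:4257318-4257567, plus strand: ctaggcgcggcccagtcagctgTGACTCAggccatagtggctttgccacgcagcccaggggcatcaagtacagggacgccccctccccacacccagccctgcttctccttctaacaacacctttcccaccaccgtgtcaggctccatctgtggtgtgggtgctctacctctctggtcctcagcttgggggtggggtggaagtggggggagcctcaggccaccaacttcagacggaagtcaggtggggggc
The NF-κB-type letters occurred in 1 of the 11 windows, that of Il6, beginning 44 bases before the start. Of all 32851 promoter windows of this length, 0.941% hold them. AP-1 letters stood in windows of 5 genes, namely Il1a (12 bases before the start), Il1rn (141), Il11 (98), Lif (228) and Il6 (249), against 6.75% of all windows. The CRE letters TGACGTCA were in none of the 11 windows (1.55% of all windows), and the C/EBP letters TTGCNNAA were in those of Il6 and Csf2 (9.56% of all windows). Each motif was searched on its own. A match describes the letters only.

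Library totals ran from 16987398 to 23272480 expected counts, with medians of 19130791 in the H-151 group, 18271589 in the PBS group and 20743016 in the SR-717 group. No pair of libraries was close to a copy, since the smallest chi-square per gene over the 36 pairs was 24.7. A pair of libraries stood apart: on the first principal component of log2 CPM (46.6% of the variance) SR-717 replicate 1 was at 101 and PBS replicate 1 at 38.8, while the other 7 lay between -28.8 and -4.03. SR-717 replicate 1 had the highest level of all 9 libraries for 10 of 10 neutrophil, 10 of 10 monocyte and macrophage and 9 of 9 T and NK cell markers. It had the lowest for 6 of 6 chondrocyte, 5 of 6 osteoblast and 4 of 6 osteoclast markers. Its osteoclast sum was 3629 CPM, against 5546 CPM in PBS replicate 1 and 4094–7592 CPM in the other 7 libraries. PBS replicate 1 lay above the other 7 libraries for 8 of 10 monocyte and macrophage markers but for 1 of 10 neutrophil markers, and below them for 5 of 6 chondrocyte markers. Summed neutrophil markers ranged over 1346–4766 CPM in the H-151 group, 598–3525 in the PBS group and 2577–14506 in the SR-717 group. Summed chondrocyte markers ranged over 5383–11348, 1532–16014 and 235–9078 CPM, and the osteoblast sum was at least 22357 CPM in every library. Markers of the skeletal cell types that the tissue label implies were thus detected. In SR-717 replicate 1, which had the lowest osteoblast and chondrocyte sums, most of the osteoblast sum was Col1a1 (21126 CPM). Levels in CPM are counts divided by TMM-adjusted library totals and put on 1 scale for the 9 libraries. Because this pair held the 2 highest levels of 8 of the 10 cytokine genes, the members' fold changes below are given with and without each of them, and the part of these markers in the cytokine values was not tested.

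Il1b, the main secreted IL-1 of activated myeloid cells, spanned the widest range of the abundant members. In H-151 calluses it measured 49.9, 18.4 and 6.11 CPM in replicates 1, 2 and 3. The PBS values were 192, 8.45 and 4.16 CPM, and the SR-717 values were 1350, 23.1 and 12.8 CPM. SR-717 replicate 1 was thus 105-fold and PBS replicate 1 was 15-fold above the median of the other 7 libraries (12.8 CPM), and the 3 groups overlapped. A single library contributed 97.4% of the summed Il1b CPM of the SR-717 group and 93.9% of that of the PBS group. Il1a, which encodes the IL-1 that is also active as an uncleaved precursor, was present at 0.225 to 0.657 CPM in 7 libraries. It measured 9.25 CPM in PBS replicate 1 and 77.7 CPM in SR-717 replicate 1, from 162 and 1505 counts, where the other libraries held 4 to 14 counts. Its 167-fold excess in SR-717 replicate 1 over the median of those 7 exceeded that of Il1b. The antagonist gene Il1rn had the same 3 highest libraries with a smaller range. Its levels were 77.5, 33.5 and 28.7 CPM with H-151, 293, 30.6 and 23.5 CPM with PBS, and 1160, 44.3 and 35.4 CPM with SR-717. The excess of SR-717 replicate 1 over the median of the other 7 was 34.7-fold for Il1rn.

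**Figure D1:**
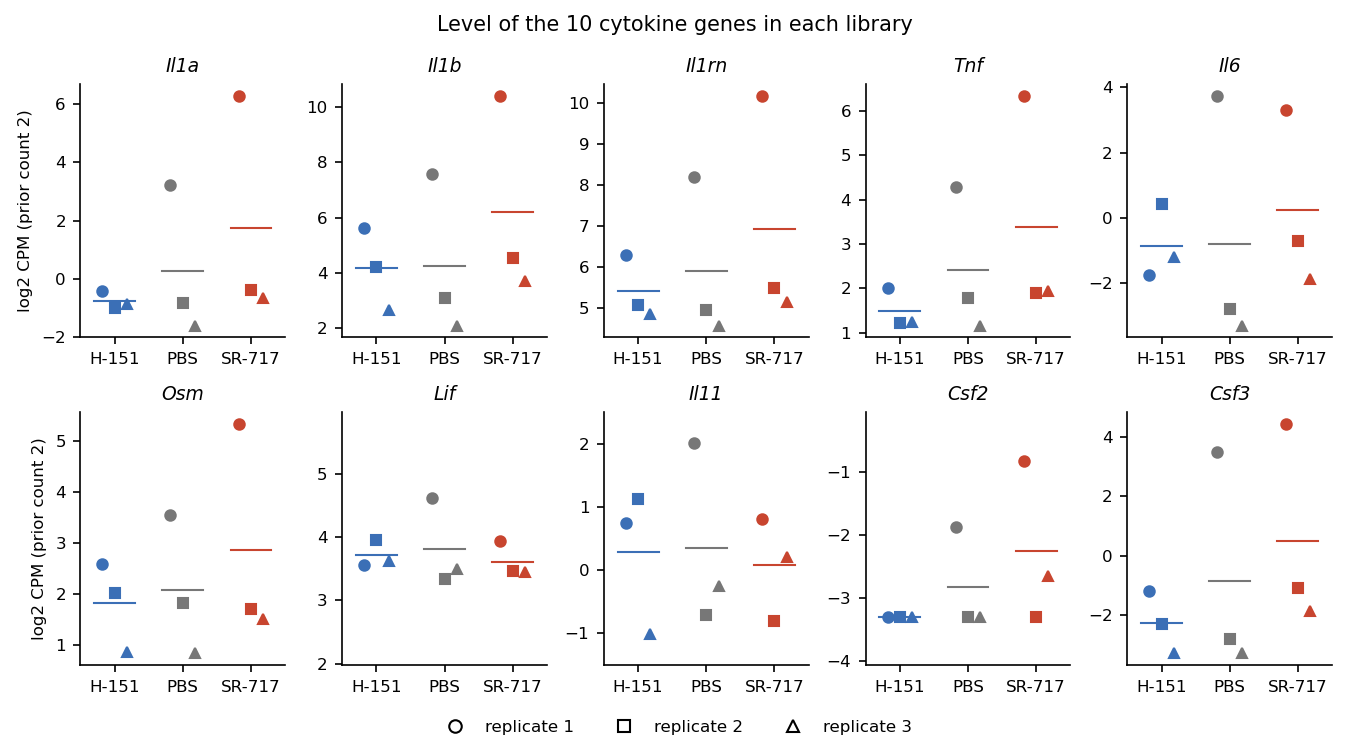
Level of each of the 10 cytokine genes as log2 CPM (prior count 2, vertical axes differ between panels) in the 3 H-151, 3 PBS and 3 SR-717 libraries; each symbol is 1 library, its shape gives the replicate number and the horizontal line is the group mean. Replicate 1 of the SR-717 group is the highest of the 9 libraries in 7 panels and replicate 1 of the PBS group in the panels of Il6, Lif and Il11.

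Per length, as the authors' TPM, the antagonist transcript exceeded the agonist transcript in most libraries. The ratio of Il1rn to Il1b TPM was above 1 in 8 of 9 libraries. It was 1.18, 1.41 and 3.33 in the H-151 libraries, 1.06, 2.75 and 4.15 in the PBS libraries and 0.625, 1.37 and 2.03 in the SR-717 libraries. Over the 9 libraries the order of the ratio was the reverse of the order of Il1b itself, which is its denominator. SR-717 replicate 1, with 1660 TPM of Il1b and 1038 TPM of Il1rn, was the one library in which Il1b exceeded its antagonist. Within each group the ratio was lowest in replicate 1, and the 3 groups overlapped. Il1b exceeded Il1a everywhere, by 20-fold to 114-fold in TPM. The decoy receptor gene Il1r2, whose product binds IL-1 without signaling, exceeded the signaling receptor gene Il1r1 only in SR-717 replicate 1. There the inhibitory partner was the higher of the pair, the reverse of Il1rn and Il1b in that library. The TPM ratio of Il1r2 to Il1r1 was 2.77 in SR-717 replicate 1 and 0.946 in PBS replicate 1, and it lay between 0.0695 and 0.677 in the other 7 libraries.

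**Figure D2:**
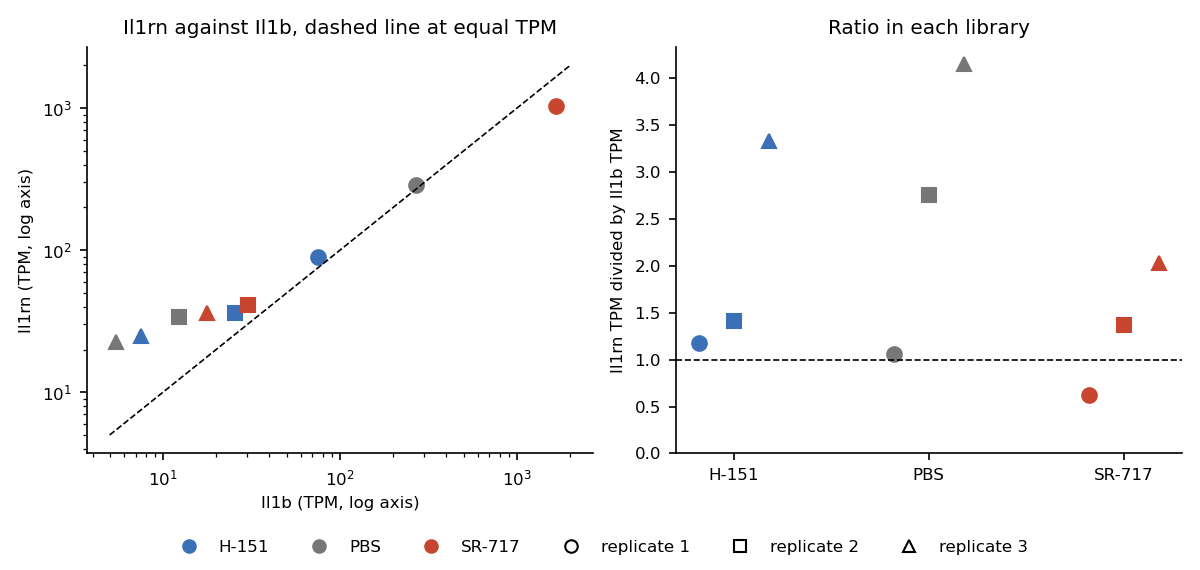
Il1rn against Il1b in TPM (left, both axes logarithmic, dashed line at equal TPM) and their ratio in each library (right, linear axis from 0, dashed line at 1); each symbol is 1 library, colored by group and shaped by replicate number. The ratio falls from 4.15 in the library with the least Il1b to 0.625 in SR-717 replicate 1, the single point below the line.

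Tnf, which encodes a cytokine made mainly by macrophages, was low and even outside the same pair of libraries. It measured 3.92, 2.22 and 2.28 CPM with H-151, 19.5, 3.34 and 2.13 CPM with PBS, and 80.9, 3.61 and 3.74 CPM with SR-717. Between the 7 other libraries it varied by less than a factor of 2, from 2.13 to 3.92 CPM, so that the group means of 2.81 ± 0.967, 8.33 ± 9.71 and 29.4 ± 44.6 CPM (SD, n = 3) for H-151, PBS and SR-717 were set by replicate 1 in both of the latter groups.

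The gp130 cytokines did not share 1 pattern. Il6, an inducer of the acute phase response, was close to the limit of detection in 7 libraries, with 0 to 25 counts. Its levels were 0.196, 1.23 and 0.333 CPM with H-151, 13.1, 0.0423 and 0 CPM with PBS, and 9.71, 0.516 and 0.175 CPM with SR-717. PBS replicate 1, a control, therefore held more Il6 than any SR-717 library. The count of 0 in PBS replicate 3 allows up to 3 counts, or 0.164 CPM of that library's unscaled total. Osm, a product of macrophages and neutrophils, ranged over 1.72–5.93 CPM with H-151 and measured 11.7, 3.42 and 1.69 CPM with PBS and 40.4, 3.19 and 2.74 CPM with SR-717. Its SR-717 replicate 1 stood 12.7-fold over the median of the other 7 libraries, the smallest excess among the 5 genes Il1a, Il1b, Il1rn, Tnf and Osm. Lif was the most even of the 10 genes. Its levels were 11.7, 15.5 and 12.2 CPM with H-151, 24.4, 10 and 11.2 CPM with PBS, and 15.3, 10.9 and 10.8 CPM with SR-717. Here SR-717 replicate 1 lay within the range of the other 7 libraries (10–15.5 CPM), and PBS replicate 1 alone was above it. Il11, which encodes a cytokine of stromal cells, measured 1.57, 2.07 and 0.389 CPM with H-151, 3.94, 0.507 and 0.73 CPM with PBS, and 1.65, 0.469 and 1.05 CPM with SR-717. As with Lif, its highest library was PBS replicate 1 and the next was H-151 replicate 2.

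The colony-stimulating factors were nearly absent outside the same pair of libraries. Csf3 was represented by 195 counts (11.1 CPM) in PBS replicate 1 and 422 counts (21.8 CPM) in SR-717 replicate 1, and by 0 to 8 counts in the other 7. Csf2 had 9 counts in SR-717 replicate 1, 3 in PBS replicate 1, 1 in SR-717 replicate 3 and 0 in the remaining 6 libraries. A count of 0 allows up to 3 counts, between 0.129 and 0.164 CPM of the unscaled total in those libraries, so differences in Csf2 between groups were not detectable at this depth. Intervals of this kind cover counting error only.

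Ranked by median TPM over the 9 libraries, the members ran from Il1rn (36.2) and Il1b (25.7) through Lif (5.2), Tnf (4.05), Osm (3) and Il11 (1.01) to Il6 (0.517), Il1a (0.497), Csf3 (0.232) and Csf2 (0). The steps from Il1b to Lif and from Osm to Il11 held in 9 of 9 libraries. Neighbors that did not separate beyond the spread between libraries were Lif and Tnf (this order in 7 of 9), Tnf and Osm (7 of 9), Il11 and Il6 (5 of 9), Il6 and Il1a (4 of 9) and Csf3 and Csf2 (7 of 9, both at 0 in the other two). Summed over the 10 members, a library held 37.7 to 185 TPM, except for 651 TPM in PBS replicate 1 and 2925 TPM in SR-717 replicate 1. Il1b and Il1rn were the top pair in all 9 libraries, and Tnf replaced Lif as the next gene in PBS replicate 1 and SR-717 replicate 1.

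Across the 9 libraries, the log2 CPM of Il1a, Il1b, Il1rn, Tnf, Osm and Csf3 correlated with one another with Pearson r of 0.94 to 0.99 over 15 pairs of genes. The points share their library, and with it depth and cell content. Without SR-717 replicate 1 the range was 0.84 to 0.98 over 8 libraries, and without PBS replicate 1 as well it was 0.61 to 0.94 over 7. Lif and Il11 correlated with those 6 genes less closely, with r of 0.53 to 0.72 over 9 libraries and -0.56 to 0.62 over the 7. Most of the shared variation among the 6 genes was thus the difference between 2 libraries and the rest. By the same measure, the genes most like Il1b over 9 libraries were Fyb (r = 0.995), Ugt1a7c (0.994) and Ifitm1 (0.994), those most like Tnf were its fellow member Il1a (0.994), Acp2 (0.993) and Gpr84 (0.993), and those most like Il6 were F3 (0.966), Cxcl1 (0.957) and Fos (0.944), among 13517 genes with a mean of at least 1 CPM. Ugt1a7c and Ifitm1 belong to families of similar sequence, so their counts are less certain. Over the 8 libraries without SR-717 replicate 1, the nearest to Il1b were C1s1 (0.989), Sp140 (0.988) and Cyba (0.987), to Tnf Cxcl16 (0.987), Gpr132 (0.980) and Gpr84 (0.980), and to Il6 Prkar2a (0.970), Klf6 (0.961) and Phlda1 (0.957). Gpr84 is the one name on both lists of the same gene.

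The comparison of SR-717 with PBS asks what a STING agonist adds to the callus. In this contrast 7 members had enough counts for the fit, and Il6, Csf2 and Csf3 did not. The fitted log2 fold changes were 2.76 (SE 2.15) for Il1b, 3.00 (2.17) for Il1a, 1.84 (1.62) for Il1rn, 1.82 (1.45) for Tnf and 1.47 (1.23) for Osm, and -0.30 (0.39) for Lif and -0.70 (0.89) for Il11. The signs rested on single libraries. Without SR-717 replicate 1 the values of the first 5 turned to -1.94, -2.48, -1.55, -1.19 and -0.92, and without PBS replicate 1 they became 6.19, 6.19, 3.93, 3.42 and 2.59. Lif and Il11 turned positive without PBS replicate 1, at 0.22 and 0.77. Of the 10 members, 0 had groups without overlap, where 1.49% of the 14070 genes tested were higher and 2.26% lower without overlap. By edgeR's quasi-likelihood test 0 members had an adjusted p under 0.05 and 0 passed an unadjusted p of 0.05 with a 1.5-fold change, against 0% of all genes by the former rule and 0.27% higher and 0.249% lower by the latter. Nothing is read from these counts, since the members were chosen with this contrast in view. In the table as a whole, edgeR gave an unadjusted p under 0.05 for 97 of 14070 genes in this contrast. It did so for 91 of 14085 genes for H-151 against PBS and 146 of 14151 for SR-717 against H-151. Uniform p-values would put a share of 0.05 of the genes there. The test thus called fewer genes than its nominal rate, and counts of 0 do not show equal levels. DESeq2 gave 0, 0 and 1 gene at an adjusted p under 0.05 in the 3 comparisons.

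Taken number by number, the CPM values of the IL-1 genes and Tnf were higher with SR-717 in each of the 3 pairs of equally numbered libraries. Deviations of libraries with equal numbers were positively correlated in this contrast, but number 3 correlated more closely with a different number (r = 0.367) than with its own (0.136), and the meaning of the numbers is not explained in the labels. For Il1b the ratio of SR-717 to PBS CPM was 7.02, 2.74 and 3.09 in numbers 1, 2 and 3. For Il1a it was 8.4, 1.41 and 2.34, for Il1rn 3.96, 1.45 and 1.51, and for Tnf 4.14, 1.08 and 1.75. Some of these ratios rested on few or near-equal counts. For Tnf in number 2 there were 77 counts with SR-717 and 79 with PBS, so the ratio above 1 came from library scaling. Il1a had 14 counts against 11 in number 2 and 9 against 4 in number 3. Osm was higher in 2 of 3 numbers, with ratios of 3.45, 0.932 and 1.63. Lif (0.626, 1.09 and 0.966) and Il11 (0.419, 0.925 and 1.44) were higher in 1 of 3. Of the 7 members that passed the filter, 4 were higher in all 3 numbers, as were 11% of all genes tested, and Csf3, which did not pass, also was on few counts. In replicates 2 and 3 alone, the same 4 of 7 were higher with SR-717 without overlap, where 11.1% of all genes tested were. So were Il6 and Csf3 outside the filter, on few counts. Il6 had 11 and 3 counts with SR-717 against 1 and 0 with PBS, and Csf3 had 8 and 3 against 1 and 0. The counts are descriptions of members already chosen on these libraries. When the replicate number was added as a block, the log2 fold changes of Il1b, Il1a, Il1rn, Tnf and Osm were 1.98, 1.99, 1.03, 1.03 and 0.83. Those of Lif and Il11 were -0.20 and -0.37. In that fit 3 of the 7 (Il1rn, Il1b and Il1a) passed the unadjusted p with the fold, where 2.43% of all genes were higher by that rule. Of all genes 0% had an adjusted p under 0.05, and nothing is read from this count of members. The sums of some marker lists also kept 1 direction over the 3 numbers. Higher with SR-717 in each were neutrophil, monocyte and macrophage, T and NK cell, B cell and keratinocyte sums. Chondrocyte sums were lower in each, and the sums of the other lists changed direction. T and NK cell sums were 101, 42.8 and 25.8 against 37.6, 31.6 and 16.7 CPM. B cell sums were 9.6, 48.9 and 17.2 against 6.05, 41.5 and 9.44 CPM. Keratinocyte sums were 21.4, 9.66 and 16.3 against 11.9, 6.93 and 11.8 CPM. Summed neutrophil markers were 14506, 3937 and 2577 CPM with SR-717 against 3525, 2986 and 598 CPM with PBS in numbers 1, 2 and 3, and summed monocyte and macrophage markers were 9978, 4040 and 3715 against 5230, 3674 and 3053 CPM. Summed chondrocyte markers were lower with SR-717 in all 3 numbers, at 235, 9078 and 4459 against 1532, 16014 and 9371 CPM. The part of these markers in the ratios of the cytokine genes was not tested.

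**Figure D3:**
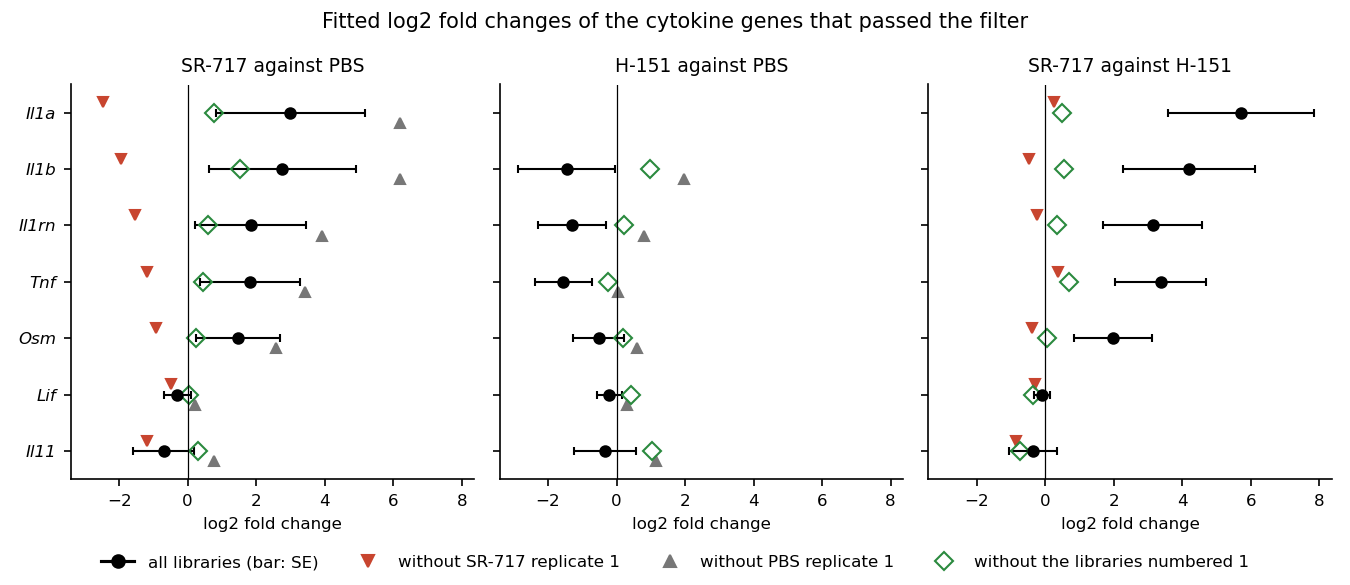
Fitted log2 fold changes of the members with enough counts in the 3 comparisons (horizontal axis, log2 scale); black circles with bars are the estimates from all 6 libraries of the 2 groups with their SE, red and gray triangles leave out SR-717 replicate 1 and PBS replicate 1, and green diamonds leave out the libraries numbered 1 in both groups. Leaving out SR-717 replicate 1 moves Il1b from 2.76 to -1.94 against PBS and from 4.20 to -0.47 against H-151.

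The comparison of H-151 with PBS asks what blocking STING removes. In it, 6 members were fitted, since Il1a also fell under the filter. All 6 estimates were below 0 with all libraries, at -1.46 (SE 1.42) for Il1b, -1.31 (0.99) for Il1rn, -1.56 (0.83) for Tnf, -0.52 (0.75) for Osm, -0.21 (0.36) for Lif and -0.34 (0.90) for Il11. With the replicate block they were -0.16, -0.50, -1.0, -0.28, -0.10 and -0.10 in the same order. Without PBS replicate 1 all 6 were above 0, at 1.98 for Il1b, 0.79 for Il1rn, 0.04 for Tnf, 0.61 for Osm, 0.32 for Lif and 1.14 for Il11. With the libraries numbered 1 left out of both groups they were 0.98, 0.22, -0.26, 0.18, 0.41 and 1.03 in the same order. In numbers 1, 2 and 3, the ratio of H-151 to PBS CPM was 0.259, 2.18 and 1.47 for Il1b and 0.201, 0.664 and 1.07 for Tnf, so no lower level held across the numbers for these genes. Members without overlap between the groups numbered 0 (1.56% of the 14085 genes tested were higher and 2.31% lower without overlap). In replicates 2 and 3 alone, Lif, 1 of the 6, was higher with H-151 without overlap, where 9.42% of all genes tested were. So was Il6 outside the filter, on 25 and 6 counts with H-151 against 1 and 0 with PBS. By edgeR's test 0 members passed either call rule, with 0% of all genes at an adjusted p under 0.05 and 0.263% higher and 0.163% lower by the unadjusted p with the fold. Because both of the contrasts so far use the same 3 PBS libraries, PBS replicate 1 enters each of them, and values of both are given side by side only.

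The comparison of SR-717 with H-151, agonist with inhibitor, gave the largest estimates. The log2 fold changes were 5.71 (SE 2.12) for Il1a, 4.20 (1.93) for Il1b, 3.37 (1.33) for Tnf, 3.14 (1.44) for Il1rn, 1.98 (1.14) for Osm, -0.10 (0.22) for Lif and -0.37 (0.70) for Il11. They too depended on SR-717 replicate 1, without which Il1a was at 0.26, Tnf at 0.38, Il1b at -0.47, Il1rn at -0.24 and Osm at -0.40. With the libraries numbered 1 left out of both groups they were 0.49, 0.70, 0.54, 0.35 and 0.04 in the same order. By edgeR's test 2 of the 7 members fitted (Il1a and Tnf) passed the unadjusted p with the fold, with 0.367% of the 14151 genes higher and 0.389% lower by that rule, and 0 passed an adjusted p of 0.05, as did 0% of all genes. As above, nothing is read from these counts, since the members were chosen on these libraries. Groups without overlap were again found for 0 of 10 members, against 2.67% of all genes higher and 2.51% lower.

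The receptors differed in how far they followed the cytokines. All 14 listed receptor genes were expressed and tested in each comparison, and 12 had SR-717 replicate 1 and PBS replicate 1 as their 2 highest libraries. These 12 include Tnfrsf1a and Il6st, whose SR-717 replicate 1 was only 1.53-fold and 1.43-fold over the median of the other 7. The share of all genes with this pair on top was not computed, so nothing is read from the count. Il1r2 measured 103 CPM in SR-717 replicate 1 and 24.9 in PBS replicate 1 against 0.506–12.3 in the other 7. Csf3r, the G-CSF receptor of neutrophils, measured 529 and 143 against 15.4–93.2. In SR-717 replicate 1 these genes had the largest excesses over the median of the other 7, at 36.6-fold and 11.5-fold. Il1rap followed at 11.3-fold. The IL-1 accessory chain gene Il1rap was at 75.2 and 15.3 CPM against 4.2–11.5, and the TNF receptor gene Tnfrsf1b was at 829 and 253 against 70.6–138. Csf2rb, the beta chain shared by the GM-CSF, IL-3 and IL-5 receptors (476 and 179 against 50.7–114), and Csf2rb2, the beta chain of the IL-3 receptor (229 and 93.8 against 24.7–57), are near-identical copies, so the split of reads between them is uncertain. Il1r1 (131 and 92 against 24.6–62.1), Il6ra (57.6 and 29.3 against 10.1–22.7), Osmr (50.3 and 41.3 against 17.7–29.2) and Csf2ra (75.2 and 40.6 against 22.5–36.5) had smaller excesses. Tnfrsf1a and the gp130 gene Il6st moved little, ranging over 160–279 CPM and 255–412 CPM in all 9 libraries. Il11ra1 (89.7–127 CPM) and Lifr (101–280 CPM), which serve Il11 and Lif, did not have either library among their highest. In edgeR's test 0 of 14 receptors had an adjusted p under 0.05 and 0 passed the unadjusted p with the fold in any of the 3 comparisons. Their median log2 fold changes were 0.63 for SR-717 against PBS, -0.18 for H-151 against PBS and 0.72 for SR-717 against H-151, beside 0.01, -0.02 and 0.02 for all genes tested.

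**Figure D4:**
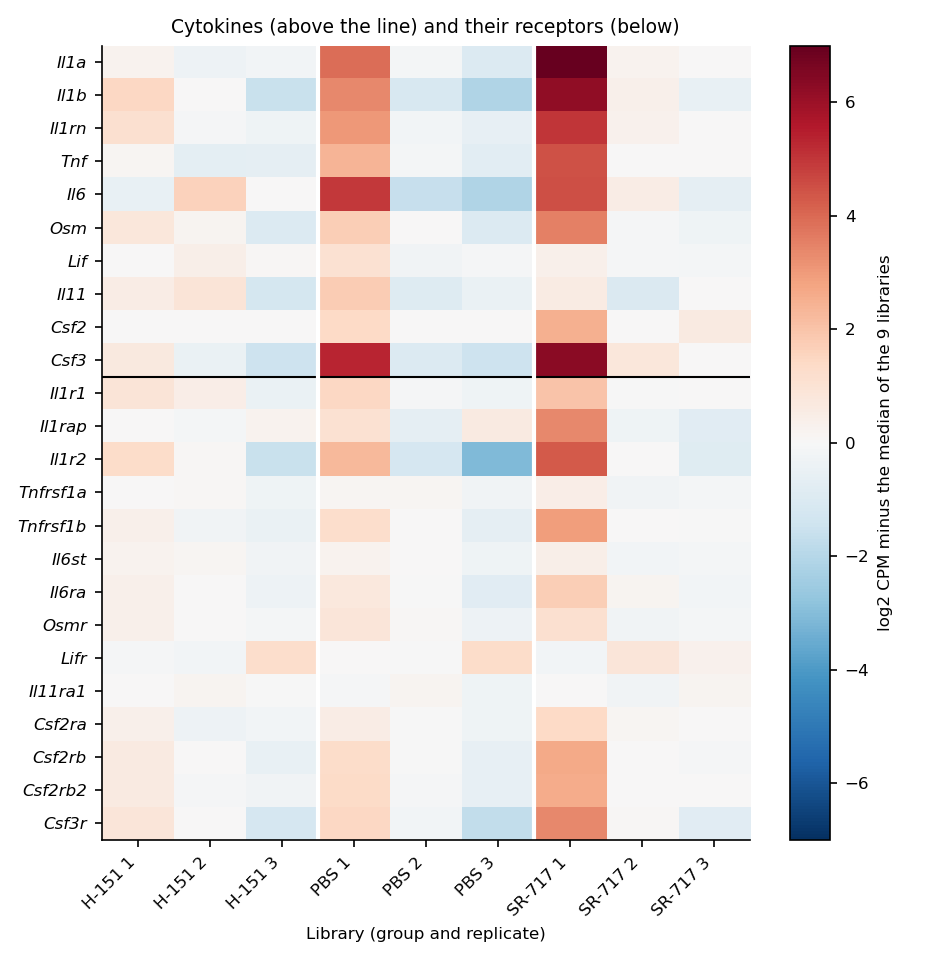
Log2 CPM (prior count 2) of the 10 cytokine genes (above the line) and 14 receptor genes (below) in each library, as the difference from the median of the 9 libraries of that gene; red is higher and blue is lower. The columns of SR-717 replicate 1 and PBS replicate 1 are red for most genes, while Lif, Il11ra1, Tnfrsf1a and Il6st are pale across most columns.

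Beyond the receptors, lists of 20 other ligands of the same families, 30 processing and signaling genes and 24 response genes were examined, which with the receptors came to 78 tested genes of 88 listed. None of the 78 reached an adjusted p under 0.05 in any of the 3 comparisons in edgeR or DESeq2. By the unadjusted p with the fold, 0 were higher and 0 lower for SR-717 against PBS and for H-151 against PBS, and 1 was higher for SR-717 against H-151. That gene was Saa3, an acute-phase protein gene induced by IL-1, TNF and IL-6 (log2 fold change 6.26, SE 2.43, unadjusted p = 0.04, adjusted p = 0.996, edgeR). It measured 23.7, 5.67 and 2.22 CPM with H-151, 916, 2.66 and 2.08 CPM with PBS and 2411, 33 and 5.08 CPM with SR-717, and the SR-717 and H-151 groups overlapped. This count rested on which library was left out: it was 17 without SR-717 replicate 2, 17 without SR-717 replicate 3, and 0 without SR-717 replicate 1 or without any one H-151 library. Over all genes, 214 of 14299 were higher without SR-717 replicate 2 and 544 of 14365 without SR-717 replicate 3, against 52 of 14151 with all libraries. For H-151 against PBS the number of lower genes was 1 without H-151 replicate 3 (Mmp13), 4 without PBS replicate 2 (Il1rap, Timp1, Saa3 and Mmp13) and 5 without PBS replicate 3 (Rhbdf2, Bcl3, Saa3, Mmp3 and Icam1), and 2 were higher without PBS replicate 1 (Ptgs2 and Cxcl1). Across the whole table, 35 of 14244 genes were lower without H-151 replicate 3, 216 of 14229 without PBS replicate 2 and 95 of 14252 without PBS replicate 3. With all libraries 23 of 14085 were lower. Higher genes numbered 75 of 14229 without PBS replicate 1, against 37 of 14085 with all libraries. These list genes were picked out after their values were seen. Median log2 fold changes of the 78 genes were 0.50, -0.18 and 0.59 in the 3 comparisons, beside 0.01, -0.02 and 0.02 for all genes tested.

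With the replicate number as a block, 17 of the 78 genes were higher with SR-717 than with PBS by the unadjusted p with the fold, where the fit without the block gave 0. Over all 14070 genes tested, 342 (2.43%) were higher by this rule with the block and 38 (0.27%) without it, and 0% had an adjusted p under 0.05 with the block, so calls were more numerous across the whole table. The 17 were 4 of 14 receptors, 3 of 11 other ligands, 2 of 30 processing and signaling genes and 8 of 23 response genes, and their smallest adjusted p was 0.999 in edgeR. These genes were singled out after their values were seen. The receptors were Il1r2, Csf3r, Il6ra and Csf2rb2. Il1r2 had the smallest unadjusted p of the 17 (0.00139, blocked edgeR fit), with ratios of SR-717 to PBS CPM of 4.11, 2.35 and 5.54 in the 3 numbers. The other ligands were Ebi3, a subunit of IL-27 and IL-35, Il36g, an IL-1 family agonist, and Ltb, a membrane-bound relative of TNF encoded 3060 bases from Tnf. Il36g measured 205, 6.94 and 8.58 CPM with SR-717 and 37.1, 5.96 and 2.64 CPM with PBS. The response genes included the neutrophil chemoattractants Cxcl1, Cxcl2 and Cxcl5, the monocyte chemoattractant Ccl2, the acute-phase genes Saa3, Lcn2 and Hp, and the protease gene Mmp3. For Cxcl1 the ratios were 1.8, 3.33 and 2.08, and for Cxcl2 they were 3.62, 2.4 and 2.08. The remaining genes were Nlrp3, the inflammasome sensor upstream of IL-1β cleavage, and the kinase gene Map3k8, the only one of the 17 that was not higher in all 3 numbers (2.96, 3.23 and 0.927). Leaving out the libraries numbered 1 in both groups, 3 of the 78 genes were higher (Cxcl1, Saa3 and Ccl2), where 82 of 14166 genes of the whole table were. The members' log2 fold changes in that fit were 1.53 for Il1b, 0.76 for Il1a, 0.58 for Il1rn, 0.44 for Tnf and 0.23 for Osm. Those of Lif and Il11 were 0.05 and 0.30. For H-151 against PBS the block gave 1 lower gene, Mmp13 (collagenase 3; ratios of 0.38, 0.833 and 0.746), where 0.433% of all genes were lower by that rule and 0% of all genes had an adjusted p under 0.05. The part of cell content in these differences was not tested. Summed neutrophil markers were highest (14506 CPM) and summed chondrocyte markers lowest (235 CPM) in SR-717 replicate 1. In PBS replicate 1 the chondrocyte sum (1532 CPM) was also below the other 7 libraries. Its neutrophil sum (3525 CPM) lay within their range of 598 to 4766 CPM.

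**Figure D5:**
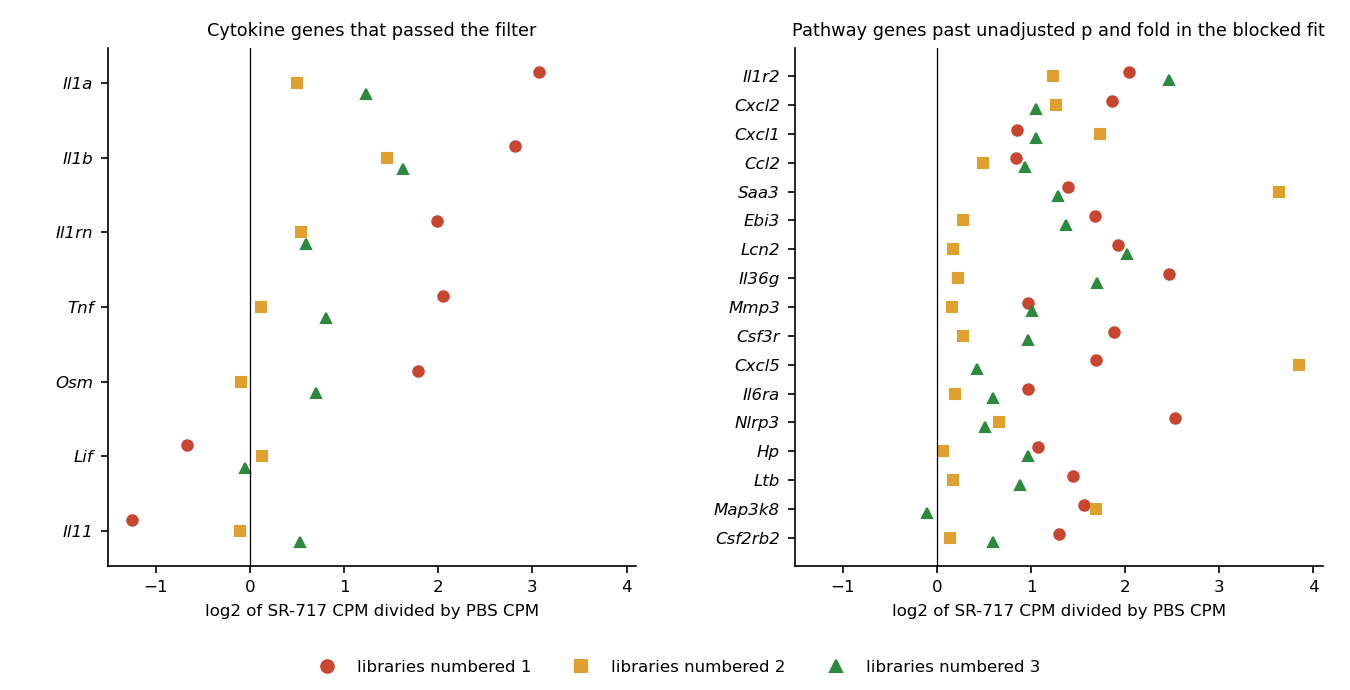
Log2 of the ratio of SR-717 to PBS CPM within each replicate number, for the 7 members that passed the filter (left) and the 17 related genes past the unadjusted p and 1.5-fold in the blocked fit (right, chosen by that fit); each symbol is 1 pair of libraries and the vertical line marks equal levels. Il1a, Il1b, Il1rn and Tnf lie to the right of the line in all 3 numbers, Tnf at a ratio of only 1.08 in number 2. Lif and Il11 lie on both sides.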

How the data were processed

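Libraries were grouped by their labels into H-151, PBS and SR-717 (3 each). Poly(A)-selected, strand-specific, paired-end libraries were sequenced by a company for the authors, whose processing notes name the mm10 build. The aligner and counter are not given in the sources used here, nor is whether counting used strand. The authors deposited gene-level expected counts that were not normalized (8.91% not whole) and TPM, scaled for gene length and library total. Expected counts were rounded and tested 2 groups at a time in R 4.3.3 by edgeR 4.0.16 (filterByExpr with a count of 10 and a total of 15, TMM, glmQLFit, glmQLFTest, Benjamini-Hochberg adjustment). DESeq2 1.42.0 was an alternative, and the script was tested on simulated data. Log2 CPM used a prior count of 2. The members and the gene lists were chosen with earlier results of these data known. The RNA extraction label describes cell lines, whereas the methods describe callus. Named genes were all members, all listed receptors, in each comparison up to 8 list genes past the call rule, and the 3 genes most like Il1b, Tnf and Il6 by Pearson r. List genes named from the blocked fit or another setting fall outside this rule and were named after their values were seen.

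Numbers 1 to 3 come from the labels. Correlations of deviations from the group means between equally numbered libraries were 0.668, 0.36 and 0.136 for SR-717 and PBS and 0.313, 0.505 and 0.511 for H-151 and PBS, above 0.1 in every pair, so blocked values are given there. For SR-717 and PBS, number 3 correlated with a different number at up to 0.367. Positions come from GENCODE vM21, which like mm10 is on GRCm38. A fold over libraries with a median of 3 counts or fewer was not computed. Other settings were DESeq2 size factors, no filter or a mean count of 50, all 9 libraries in 1 fit, the block and each library left out in turn. Leaving out the libraries numbered 1 was added after seeing the data.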

Additional observations from a re-analysis of the deposited data

How the results depend on the processing

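No listed gene outside the members had an adjusted p under 0.05 under any setting run. The number past the unadjusted p with a 1.5-fold change moved as follows. For SR-717 against PBS, 0 genes were higher, 17 with the replicate block, 3 without the libraries numbered 1 (Cxcl1, Saa3 and Ccl2), and 0 to 1 when single libraries were left out (Saa3, Stat5b, Il18 or Socs1). For H-151 against PBS, 0 were lower and 0 higher, with 1 lower (Mmp13) under the replicate block, 1 higher (Ptgs2) without the libraries numbered 1, and 0 to 5 lower and 0 to 2 higher when single libraries were left out. For SR-717 against H-151, 1 was higher (Saa3), against 4 by DESeq2 (Map3k8, Casp1, Ebi3 and Nfkbia), 4 without a filter (Il27, Saa3, Nlrp3 and Casp1), 2 in the fit of all 9 libraries (Nlrp3 and Casp1) and 0 without the libraries numbered 1, and 0 to 17 when single libraries were left out. In the same comparison 0 were lower, 1 without the libraries numbered 1 (Ptgs2) and 0 to 1 when single libraries were left out (Ptgs2 or Cntf). The replicate block gave 1 higher gene there (Cxcl5), and its equally numbered libraries correlated at 0.347, 0.0733 and 0.0825. The cause was not tested. The members' log2 fold changes under other settings were set beside the SD between replicates. In the 3 comparisons, 83 of 90, 67 of 77 and 79 of 90 stayed within 1 SD of the value from all libraries. Of all these values, 9, 12 and 5 had the other sign, each with 1 library or the libraries numbered 1 left out. The SD is wide because it includes the libraries that stood apart, so these shares do not show stability. For Il1a in SR-717 against PBS it was 3.33, and the change from 3.00 to 6.19 without PBS replicate 1 counted as within it. With 3 libraries a group and 2 that stood apart, depth was limiting for Csf2, Csf3, Il6 and, with H-151 and PBS, Il1a.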
